A study of Mus musculus with 18 samples.

Results

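The genes described here make, break down and carry out the action of cyclic AMP: 33 listed genes, of which 31 were measured among the 19937 genes of an array study of mouse hypothalamus. They were chosen by name, as adenylyl cyclases, phosphodiesterases, subunits of protein kinase A and other effectors, and each was read from its brightest probeset that carries a single gene symbol. All 8 listed cyclases and all 12 phosphodiesterases were measured, with 5 of 6 subunits of protein kinase A, 1 of 2 Epac exchange factors, both anchoring proteins, both transcription factors and Ppp1r1b. The catalytic subunit Prkaca has only a probeset shared with another gene, and no probeset is listed for the Epac gene Rapgef4, so neither has a value here.

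Adenylyl cyclases turn ATP into cyclic AMP when stimulatory G proteins reach them, and phosphodiesterases break the messenger down. Cyclic AMP frees the catalytic subunits of protein kinase A from their regulatory subunits and opens the Epac exchange factors, and the kinase phosphorylates the transcription factor CREB, which binds the cyclic AMP response element of target genes. In the hypothalamus many receptors for peptides and monoamines act through this messenger.

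The study compared wild-type mice with mice mutant for Wfs1, which encodes wolframin, a membrane glycoprotein of the endoplasmic reticulum. There were 18 arrays. Hypothalami were dissected under a microscope and frozen, and no drug or other treatment of the mice is named. The strain is written 129SV with each sample and 129S6 for the series as a whole. The sources used here do not state the age of the mice, what the mutation removes or whether each array is a separate animal. The p-values thus cover the spread from array to array, which may be technical. Each array has a genotype as the ending of its title and another in its genotype field, and these contradict each other on 9 of the 18. Groups are therefore written as ending and field: 5 arrays ko/KO, 4 wt/WT, 5 ko/WT and 4 wt/KO. Replicate numbers within a group follow accession order and only name an array. The titles carry further numbers whose meaning the labels do not give. Among them is a number that was lower on every array ending in ko than on any array ending in wt. The ending thus cannot be told apart from whatever that number records. No array was assigned a true genotype.

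Array medians lay between 7.10 and 7.19 log2 units. The standard deviation of all probesets on an array, called the array SD below, lay between 1.93 and 2.04. It was lowest on wt/WT 2, ko/KO 2 and wt/WT 1, at no more than 1.96, against at least 1.99 on the other 15 arrays. Of 18 hypothalamic markers 17 were measured. Of these 7 had a mean above the upper quartile of every array, which was 8.63 at most. They included the peptide genes Pmch (mean 11.75), Oxt (10.61), Avp (10.27) and Hcrt (9.66). The mean of 1, Crh at 6.34, lay below the array medians. Of 12 thalamic markers 11 had a mean above that quartile, with Slc17a6 the highest at 12.19. Of 9 measured cortical and hippocampal markers 3 also had a mean above it, with Rasgrf2 the highest at 9.99, and 1 lay below the array medians, Neurod6 at 4.63. Wfs1 itself fell into a pair of classes that followed neither label. It lay between 7.86 and 8.07 on 10 arrays (2 ko/KO, 3 wt/WT, 2 ko/WT and 3 wt/KO) and between 8.36 and 8.72 on the other 8 (3, 1, 3 and 1), on either side of a division at 8.2. No array lay between 8.07 and 8.36, and the classes are called low and high Wfs1. They divide the arrays by a measured level and do not name a genotype.

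Promoter sequence is shown for 4 genes, because they form the most positively correlated pair of the list (Pde1a and Prkar2a) and the most negatively correlated pair (Adcy1 and Prkar1a). Each window runs 5′ to 3′ from 250 bases before to 50 bases after a transcription start, in RefSeq's annotation of GRCm38.p6. Prkar2a and Adcy1 have 1 window each in that table, Pde1a has 4 and Prkar1a 6. For Pde1a and Prkar1a the window shown is the most upstream of those that hold a motif marked below. Windows with the full element were preferred. Capitals mark the cyclic AMP response element TGACGTCA and its short form TGACG, searched on both strands, so that CGTCA marks a short form on the other strand. A short form inside a full element is not marked apart. The windows are chr2:80038853-80039152 on the minus strand for Pde1a, chr9:108691893-108692192 on the plus strand for Prkar2a, chr11:7063183-7063482 on the plus strand for Adcy1 and chr11:109650612-109650911 on the plus strand for Prkar1a.
Pde1a: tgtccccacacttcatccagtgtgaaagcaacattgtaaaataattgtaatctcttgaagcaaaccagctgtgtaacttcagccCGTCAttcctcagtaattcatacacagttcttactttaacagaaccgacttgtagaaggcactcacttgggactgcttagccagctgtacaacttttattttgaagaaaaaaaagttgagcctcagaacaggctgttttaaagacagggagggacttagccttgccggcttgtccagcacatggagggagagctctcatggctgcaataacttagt
Prkar2a: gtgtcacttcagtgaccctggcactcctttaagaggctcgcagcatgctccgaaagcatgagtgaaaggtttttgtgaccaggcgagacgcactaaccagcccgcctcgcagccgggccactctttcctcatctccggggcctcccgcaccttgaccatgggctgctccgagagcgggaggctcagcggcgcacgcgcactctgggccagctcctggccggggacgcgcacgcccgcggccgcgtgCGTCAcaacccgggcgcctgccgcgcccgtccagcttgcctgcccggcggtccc
Adcy1: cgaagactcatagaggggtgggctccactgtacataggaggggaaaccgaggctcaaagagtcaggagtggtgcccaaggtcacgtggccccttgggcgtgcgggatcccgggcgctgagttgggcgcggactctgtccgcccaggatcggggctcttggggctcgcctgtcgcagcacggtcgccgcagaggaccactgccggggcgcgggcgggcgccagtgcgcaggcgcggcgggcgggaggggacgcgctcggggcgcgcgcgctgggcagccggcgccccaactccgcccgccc
Prkar1a: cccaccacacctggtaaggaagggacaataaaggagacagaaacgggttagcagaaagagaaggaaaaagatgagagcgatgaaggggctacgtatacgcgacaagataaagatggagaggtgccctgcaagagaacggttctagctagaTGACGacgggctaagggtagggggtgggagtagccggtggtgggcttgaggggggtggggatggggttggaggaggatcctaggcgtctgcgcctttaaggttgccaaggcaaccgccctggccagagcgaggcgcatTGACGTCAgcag

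The Prkar1a window holds the full element, starting at base 289 of 300, and a separate short form at base 151. The Pde1a window has 1 short form, at base 85, and the Prkar2a window 1, at base 247. The Adcy1 window has neither motif. The windows of Pde1a and Prkar1a were picked for holding a motif, so its presence in them is no result. Of the 4 windows of Pde1a 1 had a short form, and of the 6 windows of Prkar1a 2 had the full element. The windows differ in base composition, with G or C at 74.0% of bases for Adcy1, 69.0% for Prkar2a, 57.0% for Prkar1a and 43.3% for Pde1a. RefSeq windows were found for 24 of the 31 measured genes, 60 windows in all. Windows of Crem, which lies on chromosome 18, were not looked up, so the counts below say nothing of it. The full element was in 2 of these 60 (3.33%), both of Prkar1a, against 1.79% of all 32851 windows in the table. The short form, on either strand and also inside full elements, was in 14 (23.3%), belonging to 12 genes, against 20.8% of all windows. Windows of the cyclases were rich in G and C, with a median of 74.5% over 6 genes (55.7% to 79.0%), while those of the phosphodiesterases had a median of 53.0% over 10 genes (39.7% to 64.0%). The median over all windows was 52.7%. A motif match describes letters only.

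The levels of the cyclases were as follows, on the log2 scale as deposited, as the mean and SD over 18 arrays. Adcy1, a cyclase stimulated by calcium and calmodulin, was at 9.36 ± 0.19, and Adcy8, of the same calcium-stimulated kind, at 9.44 ± 0.10. Adcy5 and Adcy6, which calcium inhibits, were at 9.77 ± 0.10 and 8.54 ± 0.10. Adcy2 was at 9.55 ± 0.09, and Adcy3, Adcy7 and Adcy9 at 8.82 ± 0.09, 7.95 ± 0.10 and 8.51 ± 0.09. A probeset's level also depends on how well its probes bind, so these values do not rank one isoform against another.

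Among the phosphodiesterases, the calcium and calmodulin-activated Pde1a, Pde1b and Pde1c were at 8.96 ± 0.19, 10.36 ± 0.07 and 7.12 ± 0.13. Pde2a, which cyclic GMP stimulates, was at 9.75 ± 0.22. Pde3a, which cyclic GMP inhibits, was at 6.72 ± 0.10. The rolipram-sensitive Pde4a, Pde4b and Pde4d were at 8.45 ± 0.09, 9.24 ± 0.10 and 9.41 ± 0.12. Pde7a, Pde7b and Pde8b, which prefer cyclic AMP to cyclic GMP, were at 8.36 ± 0.10, 9.41 ± 0.11 and 8.75 ± 0.10, and Pde10a, best known from striatal neurons, at 8.56 ± 0.09.

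Of the effectors, the catalytic subunit gene Prkacb was at 12.20 ± 0.08. The regulatory subunits Prkar1a and Prkar1b, of the type I kinase, were at 12.15 ± 0.10 and 11.52 ± 0.05, and Prkar2a and Prkar2b, of the type II kinase, at 8.997 ± 0.13 and 9.27 ± 0.12. Rapgef3, which encodes Epac1, was at 8.196 ± 0.08. The anchoring proteins Akap5 and Akap12, which hold the kinase at its targets, were at 8.08 ± 0.11 and 9.69 ± 0.09. Creb1 was at 9.06 ± 0.15 and Crem, its relative that also makes repressor forms, at 7.23 ± 0.15. Ppp1r1b, the phosphatase inhibitor DARPP-32, was at 8.27 ± 0.14. No measured gene of the list fell below the lowest lower quartile of the arrays, 5.81, on any array. For 19 of the 31 the mean lay above 8.63, and for Pde3a and Pde1c it lay at or under the highest array median.

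**Figure D1:**
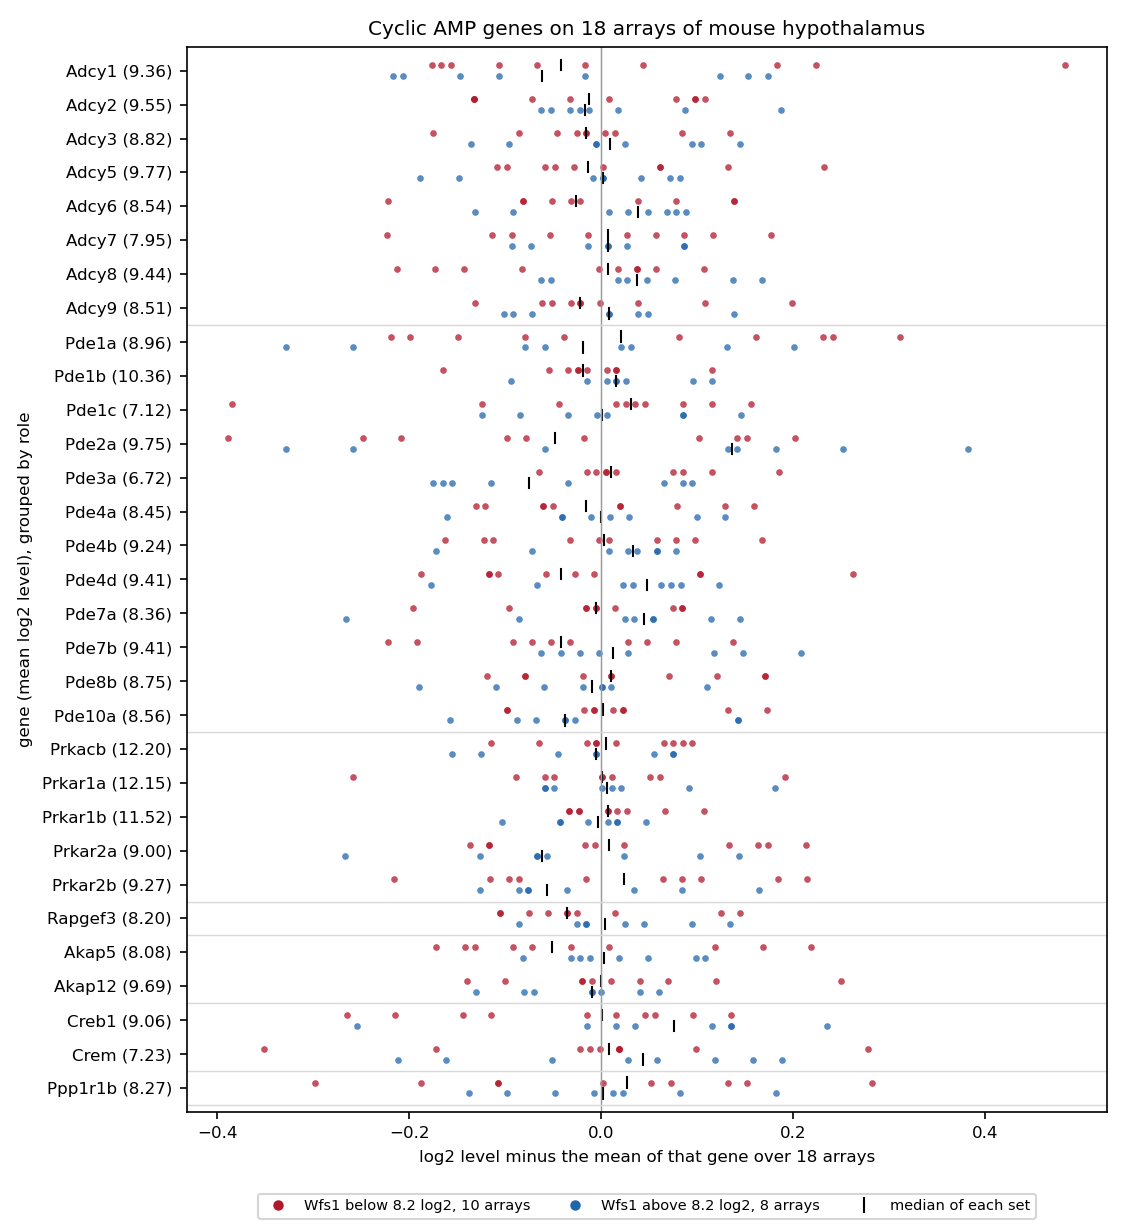
Log2 level on each of the 18 arrays minus that gene's own mean, for the 31 measured genes grouped by role (mean in brackets). Red points are the 10 arrays of low Wfs1, blue points the 8 of high Wfs1, and ticks the median of each set. The red and blue points overlap for every gene, and Pde2a, Adcy1 and Pde1a are the most widely spread.

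Most of these genes varied little from array to array. The median SD over 18 arrays was 0.10 log2 units (0.05 to 0.22), against 0.13 over all 19937 genes, and 6 of the 31 lay above that all-gene median. Pde2a varied most, from 9.36 on wt/WT 2 to 10.13 on ko/KO 1, at the 91.1st percentile of SD among all genes. On the other 4 ko/KO arrays Pde2a ran from 9.49 to 9.73.

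Adcy1 came next and ran from 9.14 on wt/WT 4 to 9.84 on wt/WT 1, so both ends of its range lay in the group of 4 arrays labelled wt/WT. Pde1a ran from 8.63 on ko/KO 2 to 9.27 on ko/KO 5, again with both ends inside a single group. Crem ran from 6.88 on wt/KO 4 to 7.51 on ko/KO 5 (SD 0.15), and Creb1 from 8.80 to 9.30 (SD 0.15). The ends of the range of Crem and of Creb1 lay in different groups, and the widest range of Crem inside a group was that of ko/KO, 7.02 to 7.51.

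The steadiest member was Prkar1b, which ran from 11.42 to 11.63 with an SD of 0.05. Only 0.1% of all genes had a lower SD. Pde1b (10.20 to 10.48, SD 0.07) and Prkacb (12.04 to 12.29, SD 0.08) followed, at the 2.8th and 6.2nd percentile.

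Pde4d was the only member with more than 1 single-gene probeset. Its 3 probesets had means of 9.41, 8.06 and 6.34, and the 2 dimmer ones correlated with the brightest at r = -0.01 and r = 0.30 over 18 arrays. Values given for Pde4d therefore describe its brightest probeset and not the gene as a whole.

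By the title ending, 10 arrays labelled ko were compared with 8 labelled wt, with limma fitted over all genes and Benjamini-Hochberg adjustment. No member passed an adjusted p of 0.05, and neither did any other gene (percent called 0). The lowest adjusted p of limma was 0.884, for members and for all genes. The means of 22 members were higher and 9 lower on arrays ending in ko, where 51.8% of all genes were higher. The median difference was 0.02 over members and 0.003 over all genes, and 0 members had an unadjusted p under 0.05, where 4.63% of all genes did.

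Pde2a showed the largest difference by the ending. It lay between 9.49 and 10.13 (median 9.81) on arrays ending in ko and between 9.36 and 10 (median 9.70) on those ending in wt, a difference of 0.12 (SE 0.09) that was 0.072 without wt/WT 2. The ranges overlap over most of their width. Pde7b lay between 9.35 and 9.62 (median 9.44) against 9.19 and 9.55 (median 9.37), a difference of 0.087 (SE 0.053).

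Prkar2b, the regulatory subunit prominent in brain and fat, lay between 9.14 and 9.48 (median 9.33) against 9.05 and 9.35 (median 9.21), which gave a difference of 0.085 (SE 0.056). For Pde1b the ranges were 10.31 to 10.48 (median 10.38) and 10.20 to 10.39 (median 10.35), and the difference was 0.064 (SE 0.039). Pde1a and Crem differed by 0.10 (SE 0.08) and 0.089 (SE 0.068), which was 0.057 for Pde1a with array SD as a covariate and 0.045 for Crem without wt/KO 4. After quantile normalization the differences of Pde7b, Prkar2b and Pde1b were 0.054, 0.053 and 0.035. For all 6 the groups overlapped, as they did for every other member, and 0.00502% of all genes separated without overlap. The 95% intervals of the differences of all 31 members ran from -0.20 to 0.31, and for 29 they lay within 0.25 of zero on both sides.

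By the genotype field, with 9 arrays each, no gene passed the threshold either (percent called 0, lowest adjusted p of limma 0.694 for all genes and for members). The means of 21 members were higher and 10 lower on KO arrays, where 47.2% of all genes were higher, with a median of 0.03 against -0.006. All 5 subunits of protein kinase A had the higher mean on KO arrays, by 0.04 to 0.12. Of the 31 members 1 had an unadjusted p under 0.05, or 3.23%, against 6.95% of all genes.

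That member was Prkar2a. It lay between 8.86 and 9.21 (median 9.10) on KO arrays and between 8.73 and 9.13 (median 8.93) on WT arrays, a difference of 0.12 (SE 0.06, limma adjusted p = 0.694). Adcy1 lay between 9.15 and 9.48 (median 9.25) on KO arrays and between 9.14 and 9.84 (median 9.51) on WT arrays, a difference of -0.16 (SE 0.08, limma adjusted p = 0.694). The WT arrays were spread wider here, with an SD of 0.22 against 0.11, and without wt/WT 1 the difference was -0.11.

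Prkar2b lay between 9.17 and 9.48 (median 9.33) on KO arrays against 9.05 and 9.43 (median 9.18), a difference of 0.092 (SE 0.056), or 0.052 with array SD as a covariate. Ppp1r1b lay between 7.97 and 8.34 (median 8.27) against 8.13 and 8.55 (median 8.35), and differed by -0.10 (SE 0.06). The groups overlapped for every member, and 0.00502% of all genes separated. Intervals of the 31 differences ran from -0.32 to 0.25.

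Where both labels agree, 5 ko/KO arrays were compared with 4 wt/WT arrays. No gene passed (percent called 0, lowest adjusted p of limma 0.384 over all genes and 0.449 over members). The means of 22 members were higher on ko/KO arrays and 9 lower, where 49.5% of all genes were higher, and the median difference was 0.05 against -0.002. By role, 10 of 12 phosphodiesterases and 5 of 5 kinase subunits had the higher mean on ko/KO arrays, and 3 of 8 cyclases did. Among members 1 had an unadjusted p under 0.05 (3.23%), against 11.1% of all genes.

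Prkar2b had the smallest p of the members. Its 5 ko/KO values were 9.35, 9.19, 9.30, 9.45 and 9.48, and its 4 wt/WT values 9.05, 9.25, 9.18 and 9.23, which gave a difference of 0.18 (SE 0.08, limma adjusted p = 0.449). Only ko/KO 2 reached down into the range of the wt/WT arrays. Prkar2a read 9.14, 8.94, 8.93, 9.17 and 9.16 against 8.99, 8.88, 8.98 and 8.73, a difference of 0.17 (SE 0.09), with ko/KO 2 and ko/KO 3 inside the wt/WT range.

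Pde1a read 9.09, 8.63, 8.90, 9.20 and 9.27 on the ko/KO arrays and 8.88, 8.81, 8.92 and 8.70 on the wt/WT arrays. The difference was 0.19 (SE 0.12), and ko/KO 2 gave the lowest value of both groups. It was 0.29 without ko/KO 2, 0.13 after quantile normalization and 0.062 with array SD as a covariate. Adcy1 read 9.34, 9.21, 9.48, 9.18 and 9.19 against 9.84, 9.34, 9.54 and 9.14, a difference of -0.18 (SE 0.12), and the lowest and the highest value were both in the wt/WT group. Without wt/WT 1 it was -0.06 and without wt/WT 4 -0.29. Pde1b differed by 0.12 (SE 0.07). After quantile normalization the differences of Prkar2b, Prkar2a and Pde1b were 0.11, 0.11 and 0.06.

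No member separated these groups without overlap, which 2.82% of all genes did. Intervals ran from -0.45 to 0.44, and for 15 of 31 members they lay within 0.25 of zero on both sides, so smaller differences than that were not resolved for the other members. The SD of all probesets was low on ko/KO 2, wt/WT 1 and wt/WT 2, which are 1 of 5 and 2 of 4 of these arrays.

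Where the labels contradict each other, 5 ko/WT arrays were compared with 4 wt/KO arrays, none of which entered the preceding comparison. No gene passed (percent called 0), the lowest adjusted p of limma was 0.9998 over members, and 15 members were higher and 16 lower on ko/WT arrays, where 53% of all genes were higher. No member had an unadjusted p under 0.05, against 2.74% of all genes. All 5 kinase subunits had the lower mean on ko/WT arrays, which carry the field WT. The comparison by the field holds both these arrays and those whose labels agree, so its 5 of 5 is no separate count. All 5 subunits had a positive r with array SD (0.375 to 0.702), and all 10 pairs of them a positive r with each other. They are thus not 5 separate observations. The median array SD was 2.012 on wt/KO against 2.005 on ko/WT arrays. It was also higher on ko/KO than on wt/WT arrays (2.008 against 1.972) and by the field on KO arrays (2.008 against 1.993). The part of array SD in these counts was not tested.

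Prkar1b read 11.53, 11.48, 11.49, 11.54 and 11.51 on ko/WT arrays and 11.59, 11.63, 11.57 and 11.55 on wt/KO arrays. It was the only member whose groups did not overlap, against 0.767% of all genes and the highest ko/WT value, 11.54, lay just under the lowest wt/KO value, 11.55. The difference was -0.075 (SE 0.049, limma adjusted p = 0.9998).

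Ppp1r1b read 8.40, 8.35, 8.42, 8.45 and 8.13 against 8.27, 7.97, 8.28 and 8.32, a difference of 0.14 (SE 0.09) that was 0.06 without wt/KO 2 and 0.22 with array weights. Adcy1 read 9.58, 9.53, 9.20, 9.51 and 9.25 against 9.40, 9.29, 9.15 and 9.25, a difference of 0.14 (SE 0.09). Pde2a read 9.67, 9.88, 9.95, 9.89 and 9.93 against 9.90, 9.54, 10 and 9.50, a difference of 0.13 (SE 0.11) that was 0.051 without wt/KO 4, 0.064 without wt/KO 2 and 0.22 without wt/KO 3. The groups overlapped for these 3 genes. The test of whether the difference by ending depends on the field called 0 genes and 0 members (limma, lowest adjusted p 0.927), with 5.18% of all genes and 0 members at an unadjusted p under 0.05.

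**Figure D2:**
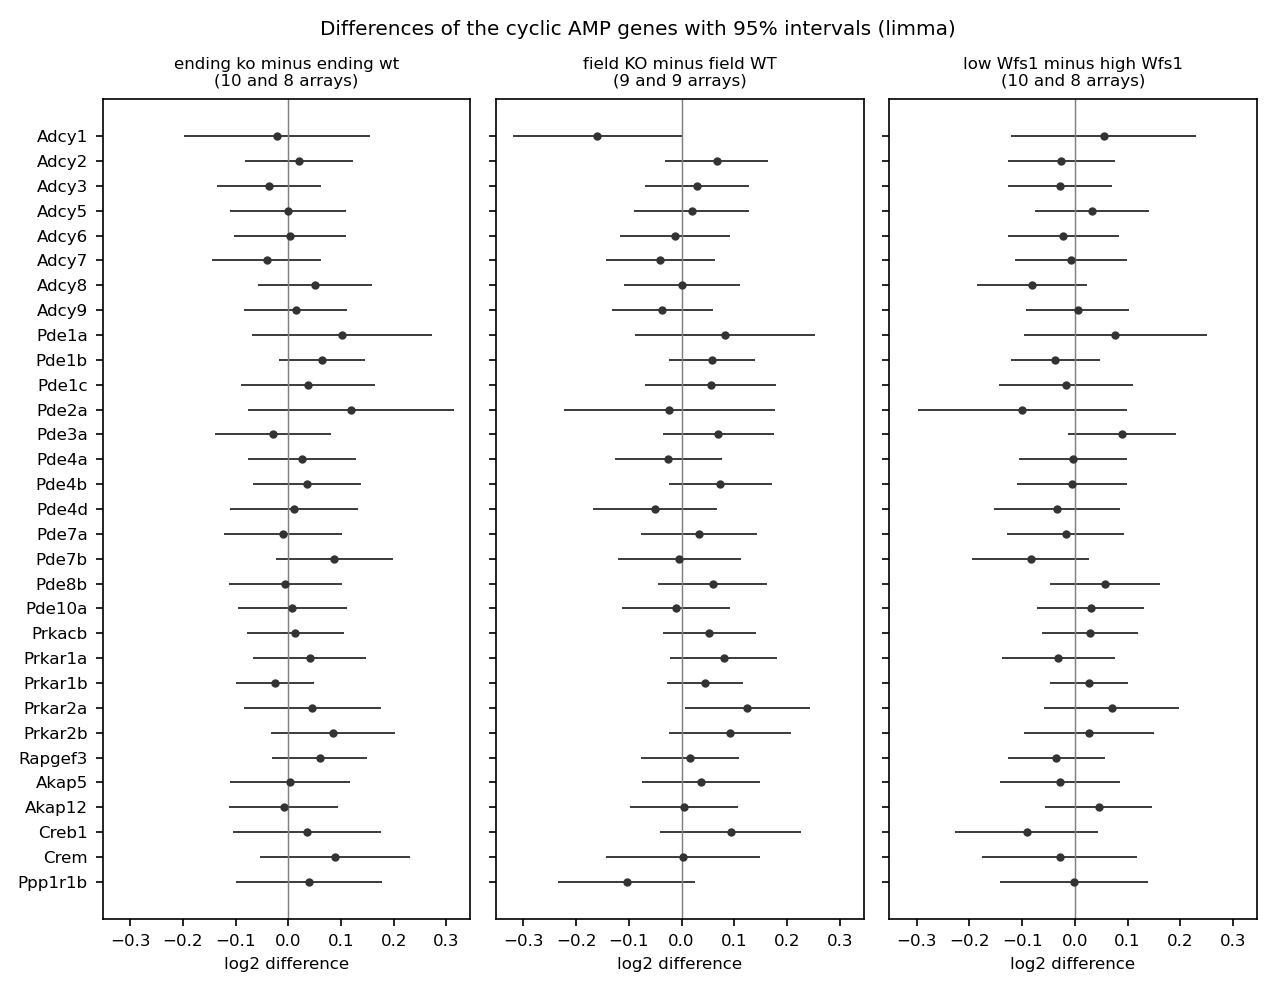
Difference in log2 level for each of the 31 genes (points) with its unadjusted 95% interval from limma (lines), by title ending, by genotype field and by class of Wfs1 level. The intervals include 0 for every gene except Prkar2a by the field (difference 0.12), and no gene of the list passed an adjusted p of 0.05.

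Between the classes of Wfs1 level, 10 low against 8 high arrays, no member passed either. Of 19936 genes tested, without Wfs1, 1 passed (percent called 0.00502): the complement gene C4b, not a member, at 0.62 (SE 0.06, limma adjusted p = 4.29e-05) above its level on high Wfs1 arrays. The means of 12 members were higher and 19 lower on low Wfs1 arrays, where 48.5% of all genes were higher, and the median difference was -0.008 against -0.002. The lowest adjusted p of a member was 0.999, and 0 members had an unadjusted p under 0.05, against 4.34% of all genes.

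Pde3a had the smallest p of the members. It lay between 6.66 and 6.91 (median 6.74) on low Wfs1 arrays and between 6.55 and 6.82 (median 6.65) on high ones, a difference of 0.090 (SE 0.049). Adcy8 lay between 9.23 and 9.55 (median 9.45) against 9.38 and 9.61 (median 9.48), a difference of -0.08 (SE 0.05). Both pairs of ranges overlap.

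Pde7b lay between 9.19 and 9.55 (median 9.37) against 9.35 and 9.62 (median 9.43), a difference of -0.084 (SE 0.054). Pde2a, at 9.36 to 9.95 (median 9.70) against 9.42 to 10.13 (median 9.89), differed by -0.10 (SE 0.10). That difference was -0.053 without ko/KO 1, -0.062 without wt/WT 2, -0.15 without wt/WT 4 and -0.066 with the title ending as a covariate. Creb1, at 8.80 to 9.20 (median 9.07) against 8.81 to 9.30 (median 9.14), differed by -0.091 (SE 0.065), or -0.16 with the striatal marker level as a covariate. No member separated the classes, which 0.015% of all genes did. Intervals of the 31 differences ran from -0.30 to 0.25, and for 30 members they lay within 0.25 of zero on both sides.

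Marker genes of other cells were set beside this division, and none passed by limma in it or by the ending (lowest adjusted p of these lists 0.394 and 0.884). All 11 measured oligodendrocyte markers had the lower mean on low Wfs1 arrays (median difference -0.20, 8 with an unadjusted p under 0.05), with a list level of 9.52 to 9.89 there against 9.74 to 10.07. Of 12 thalamic markers 11 were lower there (median -0.14, 6 with an unadjusted p under 0.05), 15 of 17 hypothalamic markers were higher (median 0.11, 5 such) and 7 of 8 choroid plexus markers were higher (median 0.094, 2 such). Astrocyte markers were mixed, 3 of 8 higher and 5 lower (median -0.02), and 3 had an unadjusted p under 0.05. Over all genes 48.5% were higher and 4.34% had an unadjusted p under 0.05. By the title ending all 17 hypothalamic markers had the lower mean on arrays ending in ko (median -0.07), 11 of 11 oligodendrocyte and 10 of 12 thalamic markers the higher (median 0.078 and 0.11) and 7 of 8 choroid plexus markers the lower (median -0.11), where 51.8% of all genes were higher. By the field 7 of 8 choroid plexus and 10 of 12 thalamic markers had the lower mean on KO arrays, and 12 of 17 hypothalamic markers the higher. Where the labels contradict each other all 17 hypothalamic markers were lower on ko/WT arrays (median -0.14), and 11 of 12 thalamic markers higher. Of all genes 47.2% and 53% were higher in these comparisons. By the field all 6 microglia markers had the higher mean on KO arrays. On low Wfs1 arrays all 5 endothelial markers had the lower mean and 9 of 11 striatal markers the higher. Where the labels agree all 8 choroid plexus markers were lower on ko/KO arrays (median -0.20, 4 with an unadjusted p under 0.05). There 11 of 11 oligodendrocyte, 6 of 6 microglia, 9 of 17 hypothalamic and 7 of 12 thalamic markers were higher. Of all genes 49.5% were higher and 11.1% had such a p. The part of these levels in the members' differences was not tested.

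Inside each class the level of Wfs1 was set against each member, 62 relations in all. None passed after adjustment by permutation test over the 62 (lowest adjusted p 0.567). The share of all genes with an unadjusted p under 0.05 inside the classes was not computed, so the count of members has nothing beside it. In each class 2 of 31 members had such a p. On the 10 low Wfs1 arrays these were Adcy7 (r = 0.75, rho = 0.74, permutation p = 0.0132, rho p = 0.0181) and Pde7b (r = -0.67, rho = -0.58, permutation p = 0.0356, rho p = 0.0853). On the 8 high ones they were Rapgef3 (r = 0.78, rho = 0.77, exact permutation p = 0.0228, rho p = 0.031) and Adcy2 (r = 0.71, rho = 0.74, exact permutation p = 0.0366, rho p = 0.0422). Without the 2 arrays farthest from the median of Wfs1 these values of r were 0.40, -0.53, 0.34 and 0.69. In each class 14 members had a positive r and 17 a negative one.

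The members were then set against each other over all 18 arrays, which gave 465 pairs. By a permutation test of r (100000 resamples, two-sided, adjusted over the 465 pairs) 40 passed (8.6%), 37 of them positive and 3 negative, and by rho 35 passed, 27 of them by both. The called pairs had an r of at least 0.63 in size. Such an r was reached by 8.82% of member pairs and by 5.27% of all pairs of measured genes. The median r was 0.16 over member pairs and 0.01 over all gene pairs. All pairs share the same arrays and so the same differences in array quality.

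These counts depended on how the arrays were put on a common scale. After quantile normalization 53 pairs passed, 27 positive and 26 negative, and the median r over member pairs was -0.002. All 40 pairs kept their sign there and 26 of them passed. After a line on array SD was removed 21 passed, 17 of them among the 40. With the 3 arrays of lowest array SD left out 7 passed, 6 of them among the 40, and all 40 kept their sign, with fewer arrays behind each test. Without wt/WT 1 alone 23 passed, and none of these was negative.

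The highest r joined Pde1a, the calcium-activated phosphodiesterase, with the regulatory subunit Prkar2a, whose promoters are printed above (r = 0.85, rho = 0.86, permutation adjusted p = 0.00581 and 0.0116). On the 3 arrays ko/KO 4, ko/KO 5 and ko/WT 3 Pde1a read 9.20, 9.27 and 9.19 and Prkar2a 9.17, 9.16 and 9.13. On wt/WT 4, where Prkar2a was lowest at 8.73, Pde1a was 8.70. Without the 2 arrays farthest from the median of Pde1a r was 0.89, after quantile normalization 0.75 and after array SD 0.77. It was 0.94 on low Wfs1 arrays and 0.69 on high ones, a difference that was not tested.

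Adcy5 and Adcy6, a closely related pair of cyclases, had the next highest r (r = 0.80, rho = 0.80, permutation adjusted p = 0.00581 and 0.0122). Adcy5 was highest on wt/WT 1, at 10 log2 units, where Adcy6 was also at its highest, 8.68, a value it shared with ko/WT 1, and Adcy5 was lowest on wt/WT 4, at 9.58, where Adcy6 was 8.41. Without these 2 arrays r was 0.75. The relation was of like size after quantile normalization (0.84) and after array SD (0.81). Adcy3 also followed Adcy5 (r = 0.76, rho = 0.73, permutation adjusted p = 0.0121 and 0.0232).

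Pde4b, a cyclic AMP-specific phosphodiesterase, followed Prkar1a (r = 0.79, rho = 0.81, permutation adjusted p = 0.00581 and 0.0122) and Creb1 (r = 0.78, rho = 0.72, permutation adjusted p = 0.0121 and 0.0255). Prkar1a also followed Prkar2b (r = 0.79, rho = 0.72, permutation adjusted p = 0.00581 and 0.0255). Without 2 arrays, wt/WT 1 among them each time, these values of r were 0.75, 0.63 and 0.64. With array SD removed they were 0.66, 0.61 and 0.68, and both pairs with Pde4b no longer passed (permutation adjusted p = 0.0544 and 0.0851). With the 3 arrays of lowest array SD left out none of these pairs passed, at r = 0.74, 0.54 and 0.72.

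The lowest r was that of Adcy1 with Prkar1a (r = -0.77, rho = -0.75, permutation adjusted p = 0.0121 and 0.0182). The array wt/WT 1 had the highest Adcy1, 9.84, and the lowest Prkar1a, 11.89, and on ko/KO 5, with the highest Prkar1a of 12.34, Adcy1 was 9.19. Without wt/WT 1 r was -0.61 and the pair no longer passed, and without both wt/WT 1 and ko/WT 1 it was -0.55. After quantile normalization it was -0.82.

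Prkar1a was also in the other negative pairs, with Adcy5 (r = -0.66, rho = -0.50, permutation adjusted p = 0.0444 and 0.17) and with Pde4a (r = -0.63, rho = -0.63, permutation adjusted p = 0.0494 and 0.0571). Without wt/WT 1 they were -0.48 and -0.52 and neither passed. Both lay near the threshold, and over 23 alternatives, 18 of them leaving out an array, they no longer passed in 11 and 14. By rho the pair with Adcy1 passed and these did not.

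**Figure D3:**
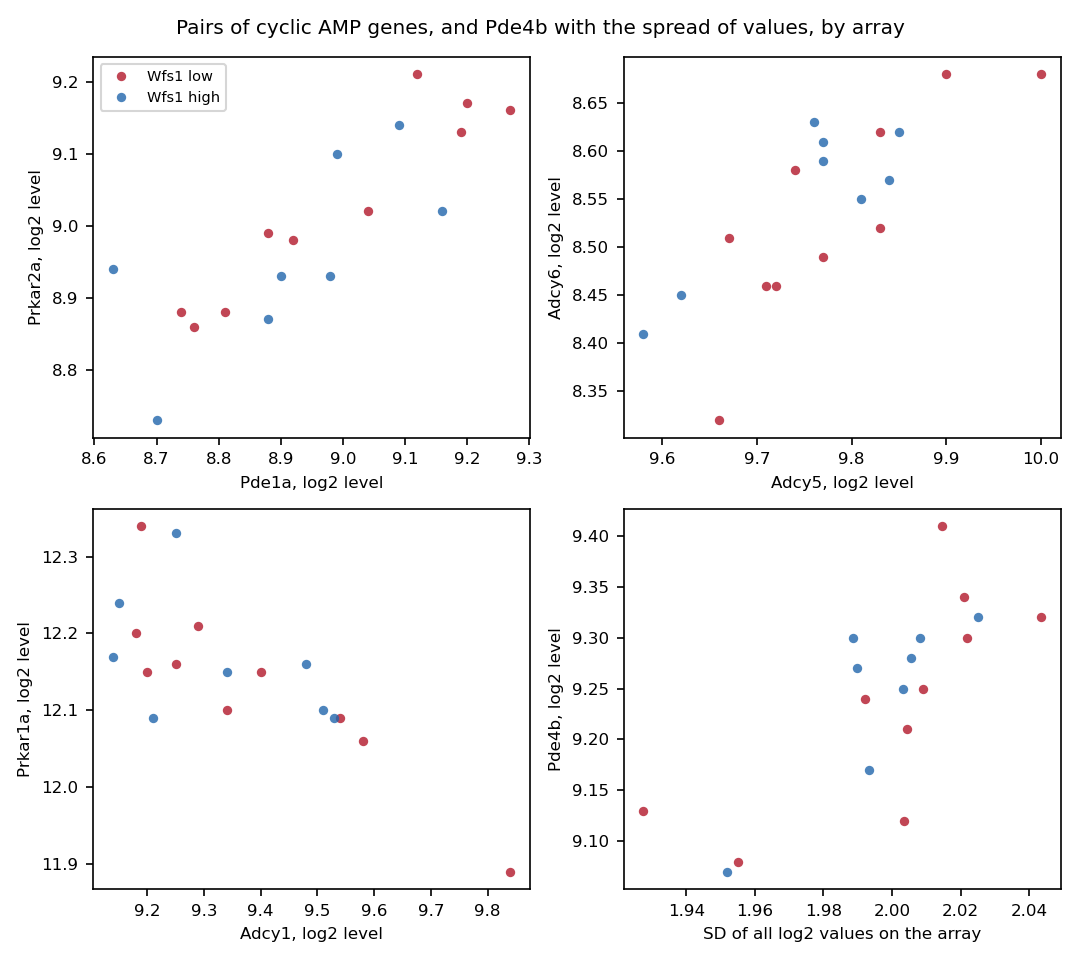
Log2 levels on the 18 arrays, 1 point per array, red for low and blue for high Wfs1: Prkar2a against Pde1a, Adcy6 against Adcy5, Prkar1a against Adcy1, and Pde4b against the SD of all log2 values on the array. The first 2 pairs rise together in both classes, the array wt/WT 1 lies far from the others in the plot of Adcy1 (9.84) and Prkar1a (11.89), and 3 arrays stand apart at the left of the plot of Pde4b, at an array SD of 1.96 or less.

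By role, 5 of 28 cyclase pairs passed, all positive, with a median r of 0.43, which was 0.46 after quantile normalization and 0.49 after array SD. Of 10 pairs among kinase subunits 2 passed and all 10 were positive, with a median r of 0.50, but that median was 0.12 after quantile normalization and 0.28 after array SD. Cyclases with kinase subunits had a median r of -0.12 over 40 pairs, 26 of them negative, and -0.27 after quantile normalization. Phosphodiesterases with kinase subunits had a median of 0.32 over 60 pairs and 9 called, and phosphodiesterases among themselves a median of 0.21 over 66 pairs with 5 called. These medians, which have no test, were 0.10 and 0.02 after quantile normalization. The cyclase pairs thus had a median of like size on each scale, and the pairs of phosphodiesterases and kinase subunits did not. Of the 5 called cyclase pairs 4 still passed after quantile normalization and 4 after array SD. With the 3 arrays of lowest array SD left out 1 did, with fewer arrays behind each test.

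Rapgef3, the Epac1 gene, had a positive r with all 8 cyclases, with a median of 0.50 and 2 pairs called. Ppp1r1b had a negative r with all 5 kinase subunits, -0.32 to -0.14, and none was called. Akap5 and Akap12 had r = 0.57 with each other, which did not pass.

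**Figure D4:**
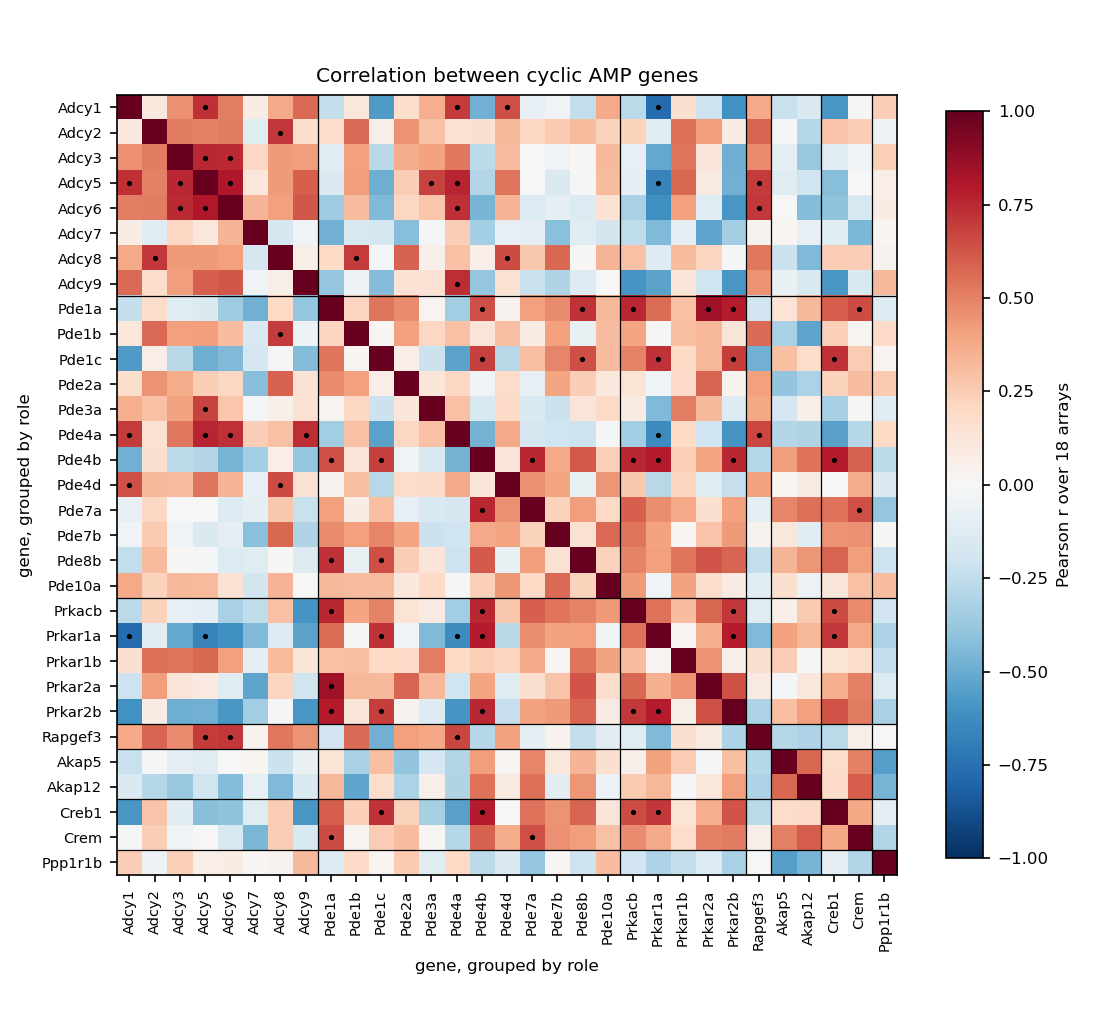
Pearson r between the 31 genes over 18 arrays, as a colour scale from negative to positive, in the order of the roles. Black dots mark the 40 pairs that passed an adjusted permutation p of 0.05. The block of cyclases is mostly positive, with 25 of 28 pairs above 0, and the block of cyclases with kinase subunits mostly negative, with 26 of 40 below 0.

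Array SD moved with some of these genes. Over 18 arrays 6 of 31 members passed with it (19.4%), all with a positive r. Of all genes 21.4% reached that size of r, 10.4% with a positive sign, and the median r was 0.38 over members and -0.02 over all genes. They were Pde4b (r = 0.76, rho = 0.76, permutation adjusted p = 0.00837 and 0.00537), Prkacb (r = 0.70), Pde1a (r = 0.66), Pde1c (r = 0.64), Creb1 (r = 0.62) and Prkar2b (r = 0.59). Creb1 did not pass by rho (0.50, permutation adjusted p = 0.105), and the other 5 did. Among the 15 arrays left without the 3 of lowest array SD 1 member passed, Prkar2a (r = 0.74, rho = 0.78, permutation adjusted p = 0.0422 for r). There 22 of 31 members had a positive r, and 44.3% of all genes. The share of all genes with an r of the size of Prkar2a on these 15 arrays was not computed.

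The mean level of 12 lists of other genes, markers of other cell types among them, was set against each member. Of these 372 relations 11 passed (2.96%). The share of all genes that would pass with these lists was not computed, so the relations below cannot be called particular to the members. Astrocyte markers, 8 of 8 with a mean above the upper quartiles and a list level of 10.32 to 10.62 over the arrays, moved with Creb1 (r = 0.82, rho = 0.84, permutation adjusted p = 0.0067 and 0.00744), Prkacb (r = 0.82), Pde4b (r = 0.76) and Pde1a (r = 0.75). Pituitary markers ran the other way, with Pde1a (r = -0.83, rho = -0.81, permutation adjusted p = 0.00558 and 0.00744), Pde4b (r = -0.80), Crem (r = -0.80), Pde7a (r = -0.76) and Prkacb (r = -0.74). Their mean level lay between 6.22 and 6.56, with 5 of 8 genes under the array medians on average, so that list held little signal. Choroid plexus markers, with a list level of 6.81 to 7.90 and 5 of 8 genes under the array medians, went with Pde4b (r = -0.70) and the other cyclic AMP pathway genes with Pde8b (r = 0.72).

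These marker levels moved with array SD as well, at r = 0.81 for the astrocyte list, -0.72 for the pituitary list, 0.76 for the other pathway genes and -0.38 for choroid plexus. Which of the 2 a member follows was not tested. In whole tissue, fewer cells of a type and less RNA per cell cannot be told apart. Markers of striatum, where Pde10a, Ppp1r1b and Adcy5 are best known, had 0 relations past the threshold, and their highest r was 0.66, with Pde1c.

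The rest of the pathway was followed in 36 of 38 listed genes, G protein subunits, further cyclases and phosphodiesterases, kinase inhibitors, anchoring proteins, CREB coactivators, cyclic nucleotide-gated channels and the peptide PACAP with its receptor. None passed in any of the 5 comparisons by limma. The means of 23 were higher by the ending and 23 by the field, 25 where the labels agree and 15 where they contradict, and 20 on low Wfs1 arrays. Of all genes 51.8%, 47.2%, 49.5%, 53% and 48.5% were higher, in the same order. At an unadjusted p under 0.05 there were 0, 5, 3, 2 and 1 of the 36, in the same order. The shares of all genes were 4.63%, 6.95%, 11.1%, 2.74% and 4.34%. Adcyap1, which encodes PACAP, a peptide that acts through cyclic AMP, had the smallest p by the field, with a difference of 0.22 (SE 0.06, limma adjusted p = 0.694). On the contradicting arrays its difference by the ending was -0.25 (SE 0.09), which is again a higher mean on the arrays with the field KO, and these arrays are among those of the field comparison.

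Transcripts known to rise with cyclic AMP, such as Fos, Nr4a1 and Per1, were all 15 measured, and none passed in any of the 5 comparisons by limma. The means of 8 were higher by the ending, 4 by the field, 8 where the labels agree, 11 where they contradict and 5 on low Wfs1 arrays. The shares of all genes were 51.8%, 47.2%, 49.5%, 53% and 48.5%. Crh, which encodes corticotropin-releasing hormone, had the smallest p of these by Wfs1 level, with a difference of 0.23 (SE 0.08) and a higher mean on low Wfs1 arrays. Its mean level of 6.34 lay below the array medians, and it is also among the hypothalamic markers. Of the 15 responsive genes 10 were lower on low Wfs1 arrays. Over these 15 genes 0, 1, 0, 2 and 3 had an unadjusted p under 0.05, against 4.63%, 6.95%, 11.1%, 2.74% and 4.34% of all genes.

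For 4 members the genes of the whole table with the most similar pattern over 18 arrays were found by Pearson r among 19936 others, as a description with no test. Adcy5 was most like Ap2a1 (r = 0.91), Zswim8 (r = 0.91) and Git1 (r = 0.90). Crem was most like Taf1 (r = 0.92), Atr (r = 0.91) and Rnf19a (r = 0.89). Pde10a was most like Tatdn3 (r = 0.83), Panx1 (r = 0.80) and Srp68 (r = 0.76), and Ppp1r1b most like Atp5d (r = 0.81), Inmt (r = 0.79) and Iscu (r = 0.78). No member of the list was among these 12 genes. With array SD these genes had r = -0.19 to -0.13 for those like Adcy5, 0.50 to 0.58 for Crem, 0.32 to 0.65 for Pde10a and 0.06 to 0.25 for Ppp1r1b.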

How the data were processed

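RNA of mouse hypothalamus, extracted with Trizol and labelled with biotin in a whole-transcript assay, was hybridised to 18 arrays, per the labels' protocols. The authors deposited 1 log2 value per probeset and array, and the log2 scale was read from the values. RMA and MAS5 are named in the submitters' processing notes, without role or version. RMA sets arrays on a common scale and compresses small differences at low signal. Scanner files and scan dates were not used here.

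Probesets with 1 gene symbol were kept, the brightest per gene, which left 19937 genes. Differences were fitted over all genes with limma 3.58.1 (lmFit and eBayes, R 4.3.3), with Benjamini-Hochberg adjusted p under 0.05. Correlations were tested by permutation (100000 resamples, exact under 10 arrays; scipy 1.17.1, numpy 2.4.6). Fits and permutations were tested on simulated data. The members, lists and tests were chosen with earlier results of these data known.

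Named in each comparison were the 3 members with the smallest p and the 3 with the largest difference; for spread the 5 largest and 3 smallest SDs; for pairs the 5 highest and 3 lowest r; for likeness the 3 genes nearest to Pde10a, Ppp1r1b, Adcy5 and Crem. Other genes and pairs were named after their values were seen. The number of arrays limits the precision. Alternatives are given in the closing section.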

Additional observations from a re-analysis of the deposited data

Results flagged for a closer look

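Each member was examined in each of the 4 groups for an array standing apart from the rest of its group. Of these 124 tests 9 found such an array. The rule gives about 1 in 20 by chance for independent tests, but members share arrays, so these tests are not independent. The share over all genes was not computed, and the 9 are not called more than chance. On ko/WT 1, Adcy2 was the highest of its group at 9.65, Rapgef3 the highest at 8.34 and Pde2a the lowest at 9.67. On wt/KO 4, Adcy2 was the lowest of its group at 9.42, where the other 3 arrays lay between 9.64 and 9.66, and Adcy8 the lowest at 9.30. Prkacb was the lowest of its group on ko/KO 2, at 12.04, and on wt/WT 2, at 12.08, both among the 3 arrays of lowest array SD. Rapgef3 was the highest of its group on wt/WT 1, at 8.32 against 8.11 for the nearest other. Ppp1r1b was the lowest of its group on wt/KO 2, at 7.97 against 8.27 for the nearest other.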

How the results depend on the processing

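No member passed in any of the 5 comparisons under any alternative fitted by limma. The count of genes passing by Wfs1 level was 1 as reported, 2 with array weights, 3 with the striatal marker level as a covariate, 2 with array SD as a covariate, and 1 to 2 with each array left out in turn (2 without ko/KO 2). Pairs passing were 40 as reported, 21 after array SD was removed, 7 without the 3 arrays of lowest array SD, and 23 to 46 with each array left out (23 without wt/WT 1, 46 without wt/WT 4); they were 56 as residuals within classes of Wfs1 level, 41 with the mean of probesets and 53 after quantile normalization. Relations with marker levels were 11 as reported and 6 to 16 with each array left out (6 without ko/KO 2, 16 without wt/WT 3). Relations with Wfs1 inside its classes stayed at 0 with each array left out. The differences of single genes and the r of the pairs named by rule kept their sign under the alternatives run for them. Medians over members did not all do so. That by Wfs1 level, -0.008 as reported, ran from -0.018 to 0.002 with each array left out (above 0 without ko/KO 3, ko/KO 5 or wt/WT 3), and the median r of pairs, 0.16 as reported, was -0.002 after quantile normalization. With the mean of probesets 39 of the 40 pairs kept their sign. Array SD, quantile normalization of pairs and every alternative for marker levels were added after seeing the data. The cause of these changes was not tested. No paired analysis was possible because the labels give no replicate numbers shared between groups. Signal over background could not be examined, since scanner files were not used here.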
